A study of Populus sp. cv. 'Okanese' with 18 samples.

Results

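The 150 genes described here were those whose transcripts were lower in drought-treated leaves of hybrid poplar at both times of day sampled. They were chosen from 31033 annotated genes by their measured values. CPM is the count of a gene divided by the total count of its library and scaled to 1000000, and levels were expressed as log2(CPM + 1). Of the 31033 genes, 15030 had a mean CPM between 5 and 512 over all 18 libraries and a mean difference between the times of under 2 on this log2 scale, and these are called the genes within the limits. Each was given the difference between 30 % and 80 % SWCg at each time, and the 150 genes for which the larger (less negative) of both differences was lowest were kept. The drought differences therefore define the genes, and their sizes, overlaps and counts of calls are given below as a description and not as a test of the list.

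The leaves came from Populus × 'Okanese', a hybrid poplar cultivar propagated from cuttings, so the trees were clones of 1 cultivar. Trees were grown for 42 days and then kept for 21 days at 1 of 3 gravimetric soil water contents (SWCg), 30, 50 or 80 % of field capacity (1 field of the sample labels gives g/g instead), under a photoperiod of 15 h. Sampling of leaves formed during the treatment took place in the late morning (LM, 10 h) and in the early evening (EE, 16 h). Each of the 6 groups, LM30, LM50, LM80, EE30, EE50 and EE80, held 3 libraries lettered A, B and C, and the 80 % SWCg groups were the well-watered reference. No source used here gives the meaning of the letters, or says whether every library stands for a separate tree. P-values hence cover only the spread among these libraries, which may be technical. Total counts ranged from 17348563 to 48110546 per library. In the headers of the count table all LM libraries carry one number and all EE libraries another. What this number marks is not stated, and it cannot be told apart from the time of day. In LM30 B the mean level of all genes within the limits was 4.54, against 4.43 in both LM30 A and LM30 C.

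When soil dries, leaves lose turgor, close their stomata under the control of abscisic acid, and grow more slowly. Genes for cell expansion, cell wall formation and primary metabolism are among those commonly expressed at lower levels in such leaves. Many leaf genes also follow the circadian clock, so their levels depend on the time of sampling. The deposited table pairs gene IDs with positions and exons but not with names or products, so no role is given to any gene below, and the tissue label was not checked against marker genes.

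The median fall of the chosen genes was similar at both times, and the rule required a fall at each. The median of LM30 minus LM80 was −0.66 on the log2(CPM + 1) scale, with a range from −2.15 to −0.45. The median of EE30 minus EE80 was −0.72, with a range from −2.70 to −0.44. Over all genes within the limits these medians were 0.03 and −0.06. The last 2 genes inside the threshold had larger differences of −0.447 and −0.445, and the first 2 outside it had −0.445 and −0.444, so the list has no natural edge. The genes were of moderate abundance, with a median mean CPM of 18.6 against 21.0 for all genes within the limits, and ranged from 5.02 to 480 CPM. The lowest count of any of them in any library was 11 reads, in LM30 B.

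Averaged over the 150 genes, the level in the LM80 libraries A, B and C was 4.66, 4.69 and 4.39, and in LM30 it was 3.95, 3.61 and 4.01. In EE80 it was 4.80, 4.52 and 4.84, and in EE30 it was 3.91, 3.68 and 4.12. At each time every 30 % SWCg library lay below every 80 % SWCg library, and the B library was the lowest at 30 % SWCg both times. Together these genes held 0.729 % ± 0.107 (SD, n = 3) of all counts in LM80 and 0.439 % ± 0.0959 (SD, n = 3) in LM30, and 0.818 % ± 0.123 (SD, n = 3) in EE80 and 0.433 % ± 0.112 (SD, n = 3) in EE30. In bulk leaf tissue, fewer cells of a type and less RNA per cell cannot be told apart.

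**Figure D1:**
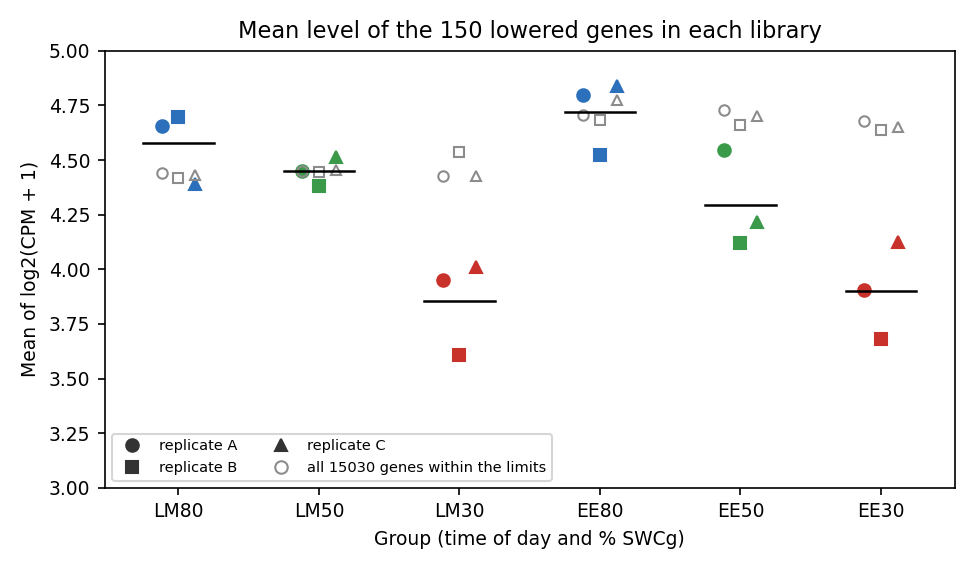
Mean level of the 150 lowered genes in each of the 18 libraries, in log2(CPM + 1), by soil water level and time of day. Filled points are libraries, black lines are group means and open grey points are the mean over all genes within the limits, and the 30 % SWCg libraries, between 3.61 and 4.12, lie below the 80 % SWCg libraries, between 4.39 and 4.84.

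Gene by gene, the separation between libraries was less complete than in the average. All 3 LM30 libraries lay below all 3 LM80 libraries for 105 of the 150 genes, where 6.48 % of the genes within the limits did so. The EE30 libraries lay below the EE80 libraries for 87 genes (18.6 % of the genes within the limits). The libraries were apart at both times for 69 genes (2.4 %). Since the same libraries chose the genes, nothing is read from these shares. For the remaining 81 genes the word lowered describes group means whose libraries overlapped at 1 time or both.

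The edgeR quasi-likelihood fit over all 23700 genes tested, with Benjamini–Hochberg adjustment, called 7 of the 150 lower in LM30 than in LM80 (0.0506 % of all genes tested). It called 29 lower in EE30 than in EE80 (1.11 %), or 45 with the replicate letter as a block, which called 1.68 % of all genes lower. Averaged over both times, 91 genes were called lower (3.11 %). Only 6 genes were called at both times separately, 30 were called in LM30 or EE30, and 59 were called in none of these contrasts. These counts again rest on the libraries that chose the genes and are no evidence for the list. The late morning count depended on single libraries. It was 0 without LM30 B, LM30 C or LM80 B, where 0 of all genes tested were called lower. It was 26 without LM80 A (0.599 % of all genes tested). Libraries outside this contrast, which share its estimate of spread, moved the count too. It was 2 without LM50 A (0.00844 %), LM50 B (0.0127 %) or EE30 A (0.00844 %), and 11 without EE30 C (0.0759 %). The early evening count was 7 without EE80 A (0.186 %), and 9 without EE30 A (0.215 %) or without EE80 C (0.274 %). It was 13 without EE30 B (0.316 %). The averaged count was 60 without EE80 A (1.16 %).

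**Figure D2:**
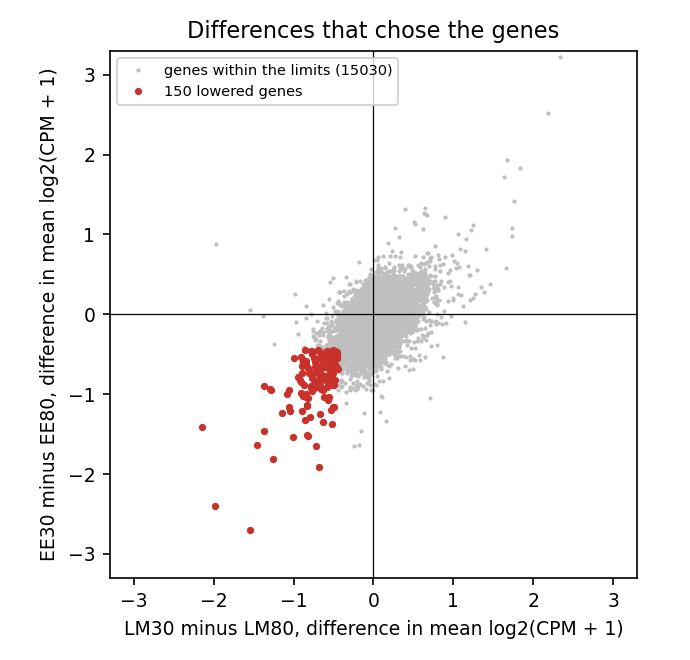
Difference between 30 % and 80 % SWCg in the early evening against that in the late morning, in log2(CPM + 1), with 1 point per gene for the 150 lowered genes and the other genes within the limits. The lowered genes fill the corner where both differences are below −0.44, down to −2.15 in the late morning and −2.70 in the early evening.

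The genes were also read in libraries the rule had not used. For each letter, 150 genes were chosen anew from the libraries of the other 2 letters. Their differences were then taken from the 30 % and 80 % SWCg libraries of the letter left out. Each difference thus sets 1 library against 1 library, which no source states to be matched. Genes of the list deviated together, as given below, so the counts describe these library pairs and are no test. In letter A, 137 of the 150 were lower in LM30 and 141 in EE30, where 53.1 % and 52.9 % of the genes within the limits were lower. Both times were lower for 133, and for 38.1 % of the genes within the limits. The medians were −0.43 in the late morning and −0.74 in the early evening. In letter C, 109 were lower in LM30 (50.2 % of the genes within the limits), 138 in EE30 (72.6 %) and 103 at both times (39.1 %). The medians were −0.25 and −0.58, and that of all genes within the limits in EE30 was −0.13. The smallest late morning difference was that of letter B, where 79 of the 150 were lower in LM30 with a median of −0.06. The median over all genes within the limits was 0.12 there, and 33.8 % of them were lower. With TMM scaling 84 were lower in LM30 with a median of −0.16, against 0.01 and 49.2 % for the genes within the limits. In the early evening of letter B, 122 were lower (56.3 % of the genes within the limits) with a median of −0.31, and 68 were lower at both times (20.9 %). The genes chosen anew included 107, 73 and 111 of the original 150 for the letters A, B and C left out. The late morning median thus ranged from −0.43 to −0.06 over the letters, and the early evening median from −0.74 to −0.31. With TMM scaling the late morning medians of letters A, B and C were −0.43, −0.16 and −0.26. The early evening medians were then −0.75, −0.28 and −0.49, so the fall became smaller in B and C. In letter B both times were again lower for 68 with TMM scaling, and for 26.0 % of the genes within the limits.

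The 2 genes with the most negative scores were both highly variable between replicates. Potri.005G096200 is a single-exon gene at chromosome 5, positions 6802346 to 6802831 on the plus strand (P. trichocarpa v4.1). Its CPM in the A, B and C libraries was 6.76, 135 and 6.75 in LM80, 11.8, 33.0 and 8.05 in LM50, and 1.14, 2.65 and 15.9 in LM30. In the early evening it was 15.7, 84.8 and 37.6 in EE80, 120, 57.1 and 31.6 in EE50, and 4.51, 4.1 and 12.5 in EE30. The EE30 libraries lay below the EE80 libraries, but LM30 C was above LM80 A and LM80 C, and a single library, LM80 B, set the late morning mean. The fitted log2 fold change in the late morning was −3.03 (SE 1.15) with all libraries and −0.11 without LM80 B, and that in the early evening was −2.61 (SE 1.11).

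Potri.002G055566, with 2 exons at chromosome 2, positions 3790202 to 3791114 on the minus strand, had nearly the same profile. Its CPM was 15.0, 81.1 and 8.54 in LM80, 24.1, 44.9 and 19.0 in LM50, and 1.71, 7.42 and 21.2 in LM30. In the early evening it was 20.2, 78.0 and 35 in EE80, 99.6, 60.4 and 30.8 in EE50, and 4.77, 1.57 and 13.9 in EE30. LM80 B was again the highest late morning library, LM30 C again exceeded LM80 A and LM80 C, and in both genes EE50 A exceeded all EE80 libraries. Deviations from the group means of the 2 genes correlated at r = 0.932 over the 18 libraries, which share these groups and their depths. The fitted log2 fold changes were −1.89 (SE 0.907) and −2.61 (SE 0.923).

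The 12 genes with the most negative scores had late morning differences from −2.15 to −1.01 and early evening differences from −2.70 to −0.95. Of these, 9 had 2 exons and 1 had a single exon. The libraries were apart in the late morning for 8 of the 12, in the early evening for 5 and at both times for 3.

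Among the 8 most abundant of the 150 genes, with mean CPM from 124 to 480, 3 were apart at both times. The most abundant was a 9-exon gene at chromosome 6, positions 23564519 to 23568739. Its CPM was 772, 177 and 138 in LM80, 266, 196 and 386 in LM50, and 155, 183 and 159 in LM30. It was 1787, 652 and 1363 in EE80, 666, 526 and 287 in EE50, and 255, 339 and 340 in EE30. Its early evening groups of 30 % and 80 % SWCg did not overlap, whereas in the late morning only LM80 A stood above all the LM30 libraries. The fitted log2 fold changes were −1.17 (SE 0.507) in the late morning and −1.94 (SE 0.516) in the early evening.

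At 50 % SWCg the 150 genes were placed differently at the 2 times. The level of each gene was put on a scale where 0 is its 80 % SWCg level and 1 its 30 % SWCg level. Its median position was 0.16 in the late morning (quartiles 0.0016 to 0.29), near the well-watered level, and 0.60 in the early evening (quartiles 0.37 to 0.72). In the late morning 102 genes lay at or below 0.25, 45 between the limits and 3 at or above 0.75, and in the early evening these counts were 24, 96 and 30. The early evening position was the higher for 131 of the 150. Both ends of the scale are groups that chose the genes, so the positions are a description.

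In differences, LM50 minus LM80 had a median of −0.10 and was below 0 for 114 genes, and EE50 minus EE80 had a median of −0.43 and was below 0 for 138. LM30 minus LM50 had a median of −0.55 and EE30 minus EE50 one of −0.31. The LM50 libraries lay below all LM80 libraries for 4 of the 150 genes (1.54 % of the genes within the limits), while the LM30 libraries lay below all LM50 libraries for 95 (8.58 %). In the early evening, EE50 lay below EE80 for 57 genes (7.77 %) and EE30 below EE50 for 42 (9.6 %).

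The contrast between the times at 50 % SWCg was not even across letters. Each position by letter used only libraries that share that letter, which no source states to be matched. The position of the mean level in the late morning was 0.29 in letter A, 0.29 in letter B and −0.33 in letter C, and in the early evening it was 0.28 in A, 0.48 in B and 0.87 in C. The values of letter A were nearly equal, and the gap was widest in letter C. With each library left out in turn, the median position stayed between 0.121 and 0.229 in the late morning and between 0.464 and 0.742 in the early evening. The 150 genes chosen the same way in the upward direction, called the raised genes below, had median positions of 0.23 and 0.64, and 127 of them were higher in the early evening, so the same libraries gave the same order in both directions.

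**Figure D3:**
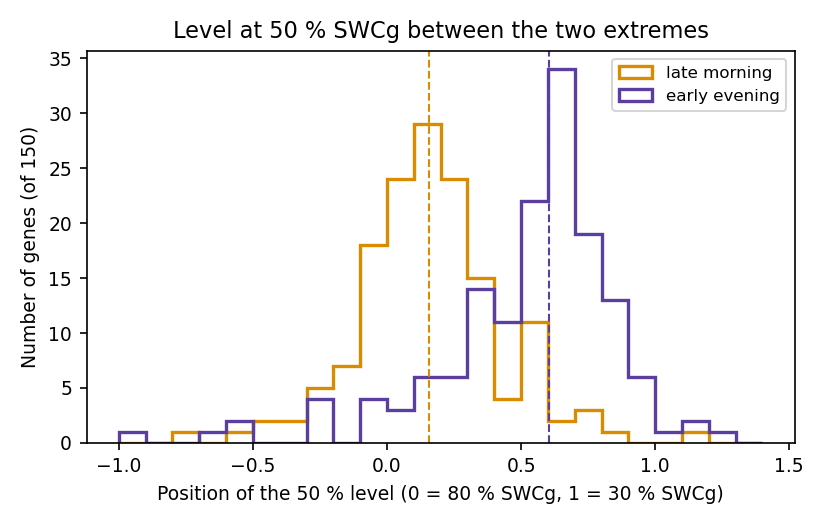
Position of the 50 % SWCg level of each of the 150 lowered genes between its 80 % SWCg level (0) and its 30 % SWCg level (1), counted by bin for the late morning and the early evening, with dashed lines at the medians. The median was 0.16 in the late morning and 0.60 in the early evening.

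Whether these genes differed between the times of day was tested at 50 % SWCg, because those libraries took no part in the drought differences. They did enter the limits on mean level and on the difference between the times. The edgeR fit called 79 of the 150, of which 59 were lower in EE50 than in LM50 and 20 higher. Over all 23700 genes tested 52.9 % were called, 24.1 % lower and 28.8 % higher, and over the genes within the limits 29.4 % and 29.8 %. The shares among the 150 genes were 39.3 % lower and 13.3 % higher. The median log2 fold change was −1.35 for the 59 genes and 0.94 for the 20. The median of EE50 minus LM50 over the 150 genes was −0.15, compared with 0.27 over all genes within the limits and 0.41 over the raised genes. At 80 % SWCg the median difference between the times was 0.16 for the 150 genes and 0.31 for all genes within the limits. At 30 % SWCg it was 0.06 and 0.22. All these medians are on CPM from total counts, so they are not read as a rise of the typical gene. Over all 23700 genes tested, the median fitted log2 fold change of EE50 against LM50 was 0.048 with TMM scaling. It was 0.003 with DESeq2 size factors. The placement of LM50 near LM80 and of EE50 nearer to EE30 uses the same libraries as this contrast.

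Genes that were lower in the evening could be followed in single libraries. Potri.001G105900 has 4 exons at chromosome 1, positions 8510988 to 8514249 on the plus strand. Its CPM in the A, B and C libraries was 43.6, 45.2 and 43.0 in LM50 and 11.17, 10.91 and 11.20 in EE50, with no overlap and little spread. The log2 fold change was −2.27 (SE 0.112, edgeR adjusted p = 6.92e-11). Its drought differences were as regular, with 50.4, 49.5 and 46.3 in LM80 and 30.3, 32.1 and 25.4 in LM30, and with 23.4, 16.8 and 18.5 in EE80 and 5.63, 6.12 and 4.78 in EE30. The 6 group means thus ran from 48.7 CPM in LM80 to 5.51 CPM in EE30, in the order LM80, LM50, LM30, EE80, EE50 and EE30, and no neighbours in that order overlapped.

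Potri.001G230600 has a single exon at chromosome 1, positions 25000654 to 25002016 on the plus strand. Its CPM was 11.4, 11.8 and 10.8 in LM50 and 3.28, 3.13 and 3.10 in EE50. The groups did not overlap, and the log2 fold change was −2.12 (SE 0.126, edgeR adjusted p = 5.89e-10). It was 12.7, 11.3 and 11.7 in LM80 and 7.83, 6.73 and 8.50 in LM30, and 5.56, 3.98 and 5.14 in EE80 and 1.72, 1.76 and 1.86 in EE30. LM50 overlapped LM80, whereas EE50 lay below EE80 and above EE30.

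The 20 genes called higher in EE50 became 13 without LM50 B (25.2 % of all genes tested) and 13 without EE50 A (26.9 %). Potri.002G236500 has a single exon at chromosome 2, positions 22946238 to 22947991 on the plus strand. Its CPM was 3.53, 2.37 and 3.28 in LM50 and 12.9, 13.5 and 14.7 in EE50, and the log2 fold change was 1.91 (SE 0.167, edgeR adjusted p = 5.74e-08). It was 4.01, 2.89 and 3.67 in LM80 and 2.36, 1.62 and 2.2 in LM30, and 19.2, 16.3 and 16.0 in EE80 and 11, 11.4 and 9.76 in EE30. All early evening libraries lay above all late morning libraries, and at each time the 30 % SWCg libraries lay below the 80 % SWCg libraries.

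Potri.005G215600 has a single exon at chromosome 5, positions 21908615 to 21913144 on the minus strand. Its CPM was 12.9, 8.61 and 9.63 in LM50 and 32.0, 26.5 and 33.6 in EE50, with a log2 fold change of 1.29 (SE 0.189, edgeR adjusted p = 2.18e-05). It was 12.4, 8.46 and 13.3 in LM80 and 9.76, 5.85 and 7.56 in LM30, so LM30 A exceeded LM80 B. In the early evening it was 42.0, 35 and 41.2 in EE80 and 28.5, 27.5 and 25.6 in EE30, without overlap.

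The 150 genes varied more between replicates than most genes within the limits. The SD of the level within groups had a median of 0.33 over the 150 genes, 0.34 over the raised genes and 0.13 over all genes within the limits, and only 4 of the 150 were at or below the last value. The part of this spread in the choice of the genes was not tested. The 69 genes apart at both times had a median SD of 0.25, and the other 81 had 0.46. Their median differences were alike, at −0.63 and −0.70 in the late morning and −0.75 and −0.67 in the early evening.

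Genes of the list also deviated together. Deviations from the group means correlated at a mean pairwise r of 0.188 over the 150 genes, 0.356 over the raised genes and 0.063 over the genes within the limits, as a description over 18 shared libraries. Average linkage at r = 0.7, a limit set after seeing the data, gave 8 sets of 5 or more genes with 106 of the 150. The largest set held 32 genes with a mean r of 0.863 and 6 of the 12 genes with the most negative scores, and its genes had a median of 2 exons. Its mean level in the A, B and C libraries was 5.17, 5.52 and 4.92 in LM80, 4.55, 4.55 and 5.42 in LM50, and 4.67, 3.57 and 4.92 in LM30. In the early evening it was 5.13, 5.10 and 5.57 in EE80, 4.80, 4.26 and 4.67 in EE50, and 4.02, 3.42 and 5.38 in EE30. In LM30 C and EE30 C this set was near its 80 % SWCg level, and only 1 of its 32 genes was apart at both times.

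The second set of 24 genes had a mean r of 0.788, and 15 of its genes were apart at both times. A set of 5 genes, with a mean r of 0.843, differed in its 50 % SWCg level. Its mean level was 4.06, 5.47 and 4.62 in EE80 and 6.0, 5.36 and 4.55 in EE50, against 3.15, 2.68 and 3.79 in EE30. In the late morning it was 3.64, 5.8 and 3.18 in LM80 and 2.09, 3.11 and 4.06 in LM30. Its median position at 50 % SWCg in the early evening was −0.52, EE50 A was above all EE80 libraries, and none of its 5 genes was apart at both times.

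**Figure D4:**
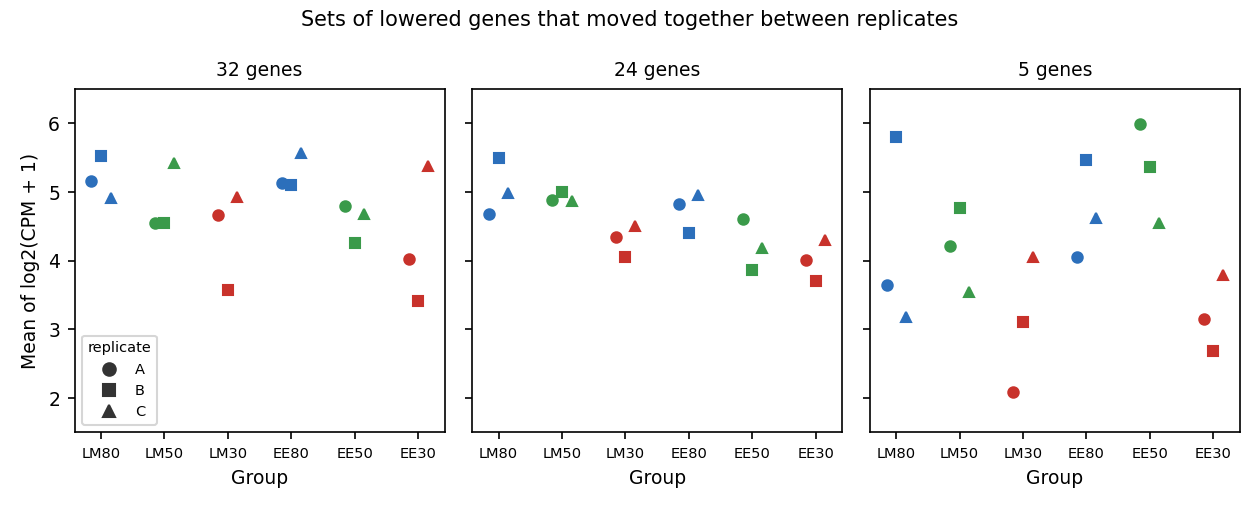
Mean level in log2(CPM + 1) of 3 sets of the lowered genes, with 32, 24 and 5 genes, whose deviations from the group means correlated, in each of the 18 libraries, with symbols for the replicate letters A, B and C. In the set of 32 genes the C libraries at 30 % SWCg, 4.92 and 5.38, are close to the 80 % SWCg libraries.

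The lowered genes had few exons. Their median was 3 exons, the same as for the raised genes, while the genes within the limits had a median of 6. Genes with 3 or fewer exons made up 88 of the 150 (58.7 %), 50.7 % of the raised genes and 30.0 % of the genes within the limits. Single-exon genes numbered 31 (20.7 %) against 10.3 % of the genes within the limits, and genes with 2 exons 39 (26.0 %) against 10.6 %. Only 9 genes (6.0 %) had 10 or more exons, against 26.7 %. Of every 100 genes within the limits, the list held 2.00 of those with 1 exon, 2.44 of those with 2 and 0.225 of those with 10 or more.

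The spread between replicates also differed by exon number. The median SD within groups was 0.152 for genes within the limits that had 1 exon, 0.142 for those with 2 and 0.112 for those with 10 or more, and its part in the difference in exons was not tested. The median summed exon length was 1663 bases for the 150 genes and 2092 for the genes within the limits, and the median span in the genome was 2474 and 4235 bases. Genes that respond rapidly to stress are known to carry few introns in several eukaryotes, Arabidopsis among them. Speed of response was not measured here, and its part in the exon numbers was not tested. The single-exon genes within the limits together held 5.45 % ± 0.068 (SD, n = 3) of all counts in LM80 and 5.52 % ± 0.25 (SD, n = 3) in LM30. In EE80 they held 5.63 % ± 0.14 (SD, n = 3) and in EE30 5.36 % ± 0.19 (SD, n = 3). The summed share of these genes did not separate the water levels.

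**Figure D5:**
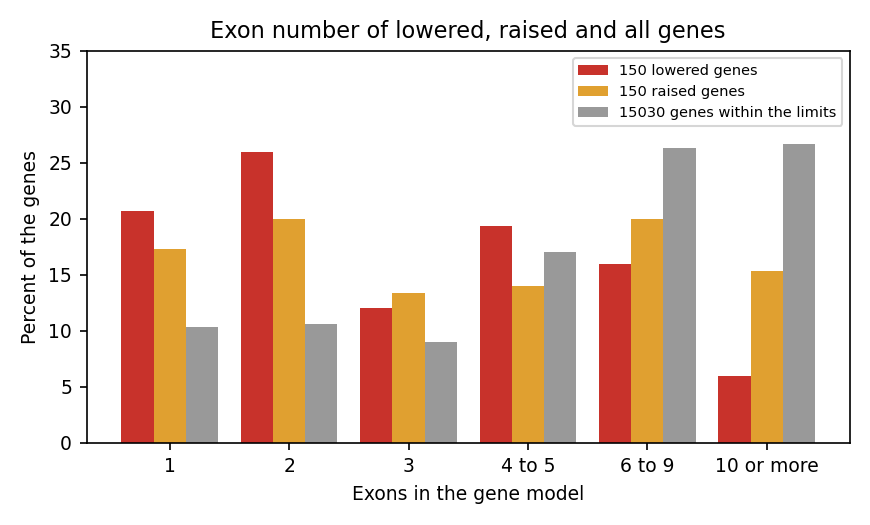
Share of genes, in percent, by number of exons for the 150 lowered genes, the 150 raised genes and all genes within the limits. Genes with 1 or 2 exons are 20.7 % and 26.0 % of the lowered genes and 10.3 % and 10.6 % of the genes within the limits.

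The 150 genes lay on all 19 chromosomes, with the highest numbers on chromosomes 1 (15 genes), 6 (14), 2 and 10 (12 each). Per 100 genes within the limits, the share ran from 0.518 on chromosome 14 to 1.70 on chromosome 16. There were 11 pairs within 3 places of each other along the chromosome, holding 19 genes, and the raised genes also formed 11 such pairs. Of the 11 pairs of lowered genes 6 were adjacent. In 4 of the 6 the deviations of the members correlated above r = 0.9. This held for 0.458 % of 8075 adjacent pairs of genes within the limits, whose median r was 0.115. Adjacent pairs of raised genes had r = 0.97, 0.86 and 0.80, and a raised pair 2 places apart had r = 0.98. The other raised pairs had r from 0.08 to 0.72. Tight neighbours were thus not particular to the lowered genes.

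A run of 3 genes at chromosome 3, positions 9348557 to 9403112, had r = 0.98 in both neighbouring pairs, which lie 31225 and 16815 bases apart on the same strand. Its first gene, with 2 exons at positions 9348557 to 9350901, belonged to the set of 32 genes. Its CPM was 495, 665 and 419 in LM80 and 362, 97.5 and 477 in LM30, and 422, 436 and 530 in EE80 and 128, 60.8 and 505 in EE30, so the C libraries at 30 % SWCg overlapped the reference at both times. The other pairs above r = 0.9 were at chromosome 1, positions 14315115 to 14328867 (r = 0.99, gap of 9400 bases), and chromosome 4, positions 16150970 to 16174092 (r = 0.97, gap of 16746 bases), each on 1 strand. A run of 3 genes at chromosome 17, positions 11842463 to 11879564, was less tight, with r = 0.53 and 0.74. Neighbouring copies with near-identical sequence can share reads, and whether these genes are such copies was not tested. The counting did not use strand, and exons of 1 of the 150 genes overlapped those of another gene on the same strand and exons of 1 those of a gene on the opposite strand, so their counts are uncertain.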

How the data were processed

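RNA was sequenced in 18 leaf libraries made with a stranded kit. Reads were trimmed by the authors with Trimmomatic (no version stated). Per the submitters' processing notes, HISAT2 2.2.1 placed the reads on P. trichocarpa v4.1, SAMtools 1.3.1 handled the alignments, and featureCounts 2.0.1 assigned reads to genes, without using strand. The deposited values are raw counts, 1 column per library, from 17348563 to 48110546 in total, and low counts are the less precise.

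Libraries were grouped by the sample labels. The 150 genes were taken as stated at the opening of the report, with a pseudocount of 1, in Python 3.11.15 (pandas 2.3.3, with matplotlib 3.10.9 for plots). The filter of the study was applied to all genes (average log2 CPM over −2 and under 9), and the counts were tested in R 4.3.3 by edgeR 4.0.16 (glmQLFTest) with TMM normalization, 1 model for the 6 groups and an adjusted p under 0.05 (Benjamini–Hochberg). All 150 genes passed this filter, as their limits on level require. Each SE printed here is the size of the fold change divided by the square root of its F statistic. The fit was tested on simulated data. The alternatives were DESeq2 1.42.0, its size factors, a likelihood ratio test with robust dispersion, no filter, each time alone, other pseudocounts and limits, a block for the replicate letter, leaving out each library, and, chosen after seeing the data, leaving out letter B.

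Same-lettered libraries had deviations from their group means that correlated at 0.206, 0.197 and 0.378 (A, B, C) between EE30 and EE80, which were treated as pairs from these values and not from any label. Between LM30 and LM80 they correlated at 0.0689, −0.111 and 0.12. Within groups, counts differed beyond counting noise (chi-square per degree of freedom from 5.18 to 38.1), so no library was treated as deposited more than once. This does not show that libraries came from separate trees.

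The genes and lists were chosen with earlier results of these data known. Genes were to be named by score, level and p in EE50 against LM50. Because the files do not pair IDs with names, at most 2 IDs are given per direction of a comparison, the others are described by position or range, and the planned lists of gene products, cell type markers and promoter motifs were not run. Sets of genes that deviated together and the neighbouring pairs were described after their values were seen.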

Additional observations from a re-analysis of the deposited data

How the results depend on the processing

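The counts called lower moved with the test and with single libraries. For LM30 the count of 7 became 75 with the likelihood ratio test and robust dispersion (1.66 % of all genes tested), 59 with DESeq2 (1.4 %) and 4 with the late morning fitted alone (0.0211 %). For EE30 the count of 29 became 97 (3.72 %) and 55 (2.4 %) with the first 2 of these. Averaged over both times, 91 became 138 with the likelihood ratio test (5.53 %). Without all libraries of letter B, an alternative chosen after seeing the data, the count was 0 in LM30 (0 % of all genes tested). It was 12 in EE30 (0.224 %) and 49 averaged over both times (0.852 %). With each library left out in turn the counts ranged from 0 to 26 in LM30 (0 % and 0.599 % of all genes tested). They ranged from 7 to 40 in EE30 (0.186 % and 1.65 %) and from 60 to 115 averaged (1.16 % and 3.58 %). For EE50 against LM50 the range was 53 to 62 lower (22 % and 24.6 % of all genes tested). It was 13 to 23 higher, with 13 without LM50 B (25.2 %) or EE50 A (26.9 %) and 23 without LM30 B (28.4 %). Either way it was 69 to 84 (46.7 % and 53.8 %). DESeq2 size factors gave 61 lower (26.4 %) and 18 higher (26.3 %).

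With the replicate letter as a block, 44 genes were called lower in LM30 (0.561 % of all genes tested) and 45 in EE30 (1.68 %). Averaged over both times, 113 were called lower (4.22 %). For EE50 against LM50, 87 were called either way (54.5 % of all genes tested and 61.2 % of the genes within the limits). The block covered all 6 groups, and no source states that libraries of 1 letter are matched. Deviations of same-lettered libraries correlated at 0.197 to 0.378 between EE30 and EE80, and at −0.111 to 0.12 between LM30 and LM80.

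The choice of genes depended on scaling. Of the 150, 133 were chosen again with TMM, 120 with DESeq2 size factors, 145 and 139 with pseudocounts of 0.5 and 2, 125 and 104 with a mean CPM from 1 or from 10, and 110 to 150 with each library left out, fewest without LM30 B. The late morning fold change of Potri.005G096200 turned from −3.03 to 0.29 without letter B. The cause of these changes was not tested.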
